A study of Mus musculus with 5 samples.

Results

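The genes of S phase and DNA replication were examined in RNA from mouse haematopoietic stem cells (HSCs), the rare bone marrow cells that renew the blood. Their members were 31 listed symbols, taken wherever a symbol was a row of the expression table. Of these, 29 were rows of the table of 11643 genes, and Gins1 and Gmnn were not analysed here. All 29 passed the filter on low values (at least 1 FPKM on average, FPKM being a fragment count scaled by transcript length and by the total of the library). The test between groups was fitted over all 10570 genes that passed it.

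RNA-seq libraries were made from cells sorted as Lin-cKit+Sca1+ CD150+CD48- from bone marrow of mice on a C57BL/6 background, 3 libraries labelled control and 2 labelled Tle1/3/4-deficient. In the deficient mice Vav-Cre, which acts in the whole blood lineage and not in HSCs alone, was meant to delete all 3 genes from their floxed copies. The titles of the control libraries carry a tag beginning with VavC, which does not settle whether those mice carried Vav-Cre or floxed alleles. The ages, and whether a library was from a single mouse or a pool, are not given in the labels. The spread between replicates may therefore be technical. The TLE proteins are co-repressors, and the comparison asks what their loss does to the RNA of HSCs.

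Before dividing, a cell loads the MCM helicase, made of the Mcm2 to Mcm7 proteins, onto replication origins with Cdc6 and Cdt1, a step called licensing. At the start of S phase cyclin E with its kinase, Cdc45 and the GINS complex activate the helicase, and DNA polymerases with the sliding clamp Pcna copy the strands. Many of these genes are transcribed under E2F factors, whose motifs lie close to their start sites. Adult HSCs are known to be mostly quiescent, with a minority in cycle at any time.

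The promoters of the 5 members whose libraries did not overlap between the groups are printed because they show how differently E2F motifs and CCAAT boxes, a general promoter element of many cell cycle genes, are placed among genes of this set. Each runs from 170 bases before to 30 bases after the RefSeq start, 5′ to 3′ on the gene's strand, and capitals mark E2F matches and CCAAT boxes on either strand. Positions are on GRCm38.p6, the build of the sequence table, whereas the submitters' processing notes list mm9 for the expression data. Mcm6 lies at chr1:128359676-128359875, minus strand, Mcm7 at chr5:138171854-138172053, minus strand, Rpa2 at chr4:132768190-132768389, plus strand, Rrm2 at chr12:24708084-24708283, plus strand, and Ccne1 at chr7:38107461-38107660, minus strand.
Mcm6: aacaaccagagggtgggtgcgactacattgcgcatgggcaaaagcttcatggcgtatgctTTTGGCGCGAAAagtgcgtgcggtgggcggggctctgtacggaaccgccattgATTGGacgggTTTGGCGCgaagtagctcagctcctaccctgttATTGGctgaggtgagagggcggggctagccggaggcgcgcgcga
Mcm7: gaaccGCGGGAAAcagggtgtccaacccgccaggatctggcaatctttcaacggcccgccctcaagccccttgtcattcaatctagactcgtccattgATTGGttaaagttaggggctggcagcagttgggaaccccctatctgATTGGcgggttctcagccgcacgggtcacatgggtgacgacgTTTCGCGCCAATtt
Rpa2: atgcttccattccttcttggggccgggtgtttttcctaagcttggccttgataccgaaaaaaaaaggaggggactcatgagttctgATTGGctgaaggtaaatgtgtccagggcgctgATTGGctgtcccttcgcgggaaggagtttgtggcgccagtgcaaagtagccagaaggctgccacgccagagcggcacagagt
Rrm2: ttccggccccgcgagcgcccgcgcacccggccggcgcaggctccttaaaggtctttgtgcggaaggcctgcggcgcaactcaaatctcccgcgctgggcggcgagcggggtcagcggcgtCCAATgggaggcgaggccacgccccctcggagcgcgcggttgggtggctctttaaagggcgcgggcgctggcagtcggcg
Ccne1: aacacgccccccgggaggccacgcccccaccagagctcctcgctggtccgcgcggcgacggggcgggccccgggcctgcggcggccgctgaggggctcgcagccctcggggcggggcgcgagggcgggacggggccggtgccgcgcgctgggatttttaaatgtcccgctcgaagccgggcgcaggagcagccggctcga

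In the Mcm6 window 3 E2F matches stood upstream of the start, at -110, -106 and -47, of which the first pair overlaps on opposite strands. The Mcm7 window held 2 E2F matches, at -165 and at 17, the latter overlapping a CCAAT box. Rpa2 and Rrm2 had CCAAT boxes and no E2F match, and Ccne1 had neither. Absence says only that these letters are not in the window. Mcm7 has 2 annotated windows, and the one with E2F matches is shown.

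Over the whole set a promoter window of 250 bases before to 50 after the start was found for 26 of the 29 genes. An E2F motif (TTTCCCGC, TTTCGCGC, TTTGCCGC or TTTGGCGC, both strands) was present in 10 of the 26 (38.5%), namely Cdc6, Cdt1, E2f2, Lig1, Mcm3, Mcm5, Mcm6, Mcm7, Pola1 and Uhrf1. Among 8930 genes of the expression table with a window the share was 4.71%, and among all 32851 windows it was 2.26%. A CCAAT box (CCAAT, both strands) was in 17 of 26 (65.4%), against 42.7% of the table's genes and 37.4% of all windows. The CHR motif (TTTGAA, both strands), an element known from promoters of mitotic genes, was in 4 of 26 (15.4%), against 14.2% of the table's genes and 17.9% of all windows. Genes of G2/M and mitosis had an E2F match in 2 of 33 (6.06%), a CCAAT box in 27 of 33 (81.8%) and a CHR match in 24 of 33 (72.7%). The 2 sets thus differed in opposite ways for E2F and CHR, while both had CCAAT boxes in a larger share than the table's genes. The motif plot sets these shares side by side as a description, with no test.

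**Figure D1:**
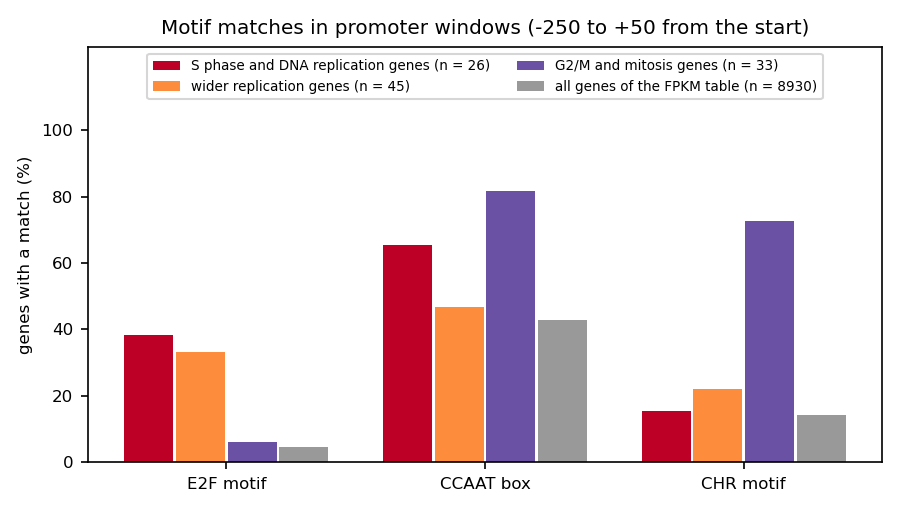
Share of genes (%) with an E2F motif, a CCAAT box or a CHR motif in the window from 250 bases before to 50 bases after the start, for 4 sets of genes, with the number of genes that had a window in the legend. The S phase set stands at 38.5% for E2F and 15.4% for CHR, and the G2/M set at 6.06% and 72.7%.

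The level of Tle3, which was meant to be deleted, was higher under the deficient label. It was 2.48, 4.97 and 5.61 FPKM for control replicates 1, 2 and 3, and 32.3 and 31.6 FPKM for deficient-labelled replicates 1 and 2. Tle4 was at 5.67, 0.0129 and 5.29 against 0.353 and 0.203 FPKM, and Tle1 was at 1.83, 0.811 and 3.33 against 2.84 and 4.37 FPKM. Each gene has 1 value per library, so whether a floxed part was lost cannot be seen. All directions below therefore rest on labels, and "deficient-labelled" is used throughout. Total read numbers are unknown. From the commonest ratio of low values, which 8 to 36 genes shared, the deepest library had 1.46 times the depth of the shallowest. The 14 HSC markers summed to 976 to 1018 FPKM for controls against 683 and 510.2 FPKM, with 10 of 14 fold changes negative. Kit, which the sort requires, was at 149 to 185 against 102 and 102 FPKM. Slamf1, which encodes CD150, was at 14.85, 23.95 and 21.11 against 31.76 and 31.03 FPKM, both values exceeding the highest control (limma adjusted p = 0.690). In deficient-labelled replicate 2 the sort markers Ly6a and Cd48 lay outside the control range. There Ly6a, which encodes Sca-1, was at 14.0 FPKM against 57.8 to 199 in the controls, and Cd48 was at 23.4 against 3.22 to 13.01 FPKM. Granulocyte-monocyte markers moved with that library too: all 18 found had positive fold changes, and their summed level was 999.5 to 3474 FPKM in the controls against 11934 and 70717 FPKM in deficient-labelled replicates 1 and 2. Their part in the results below was not tested. In bulk RNA such as this, more cells of a type and more RNA per cell cannot be told apart.

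The replication genes were expressed above most others. The median of the 29 genes' mean levels was 61.5 FPKM, against 15.8 FPKM over all tested genes, and 25 of the 29 lay above that. No member was listed at 0 in any library. In the controls the median SD of log2(FPKM + 1) was 0.24 over the members and 0.53 over all tested genes, and in the deficient-labelled libraries it was 0.39 and 0.47. These SDs were not compared between genes of like level, so they do not show that replication genes are steadier. The set spread in level from Mcm6, at up to 301 FPKM, to E2f2, at 0.0625 FPKM in deficient-labelled replicate 1. The plot of levels by library shows each gene's 5 values.

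**Figure D2:**
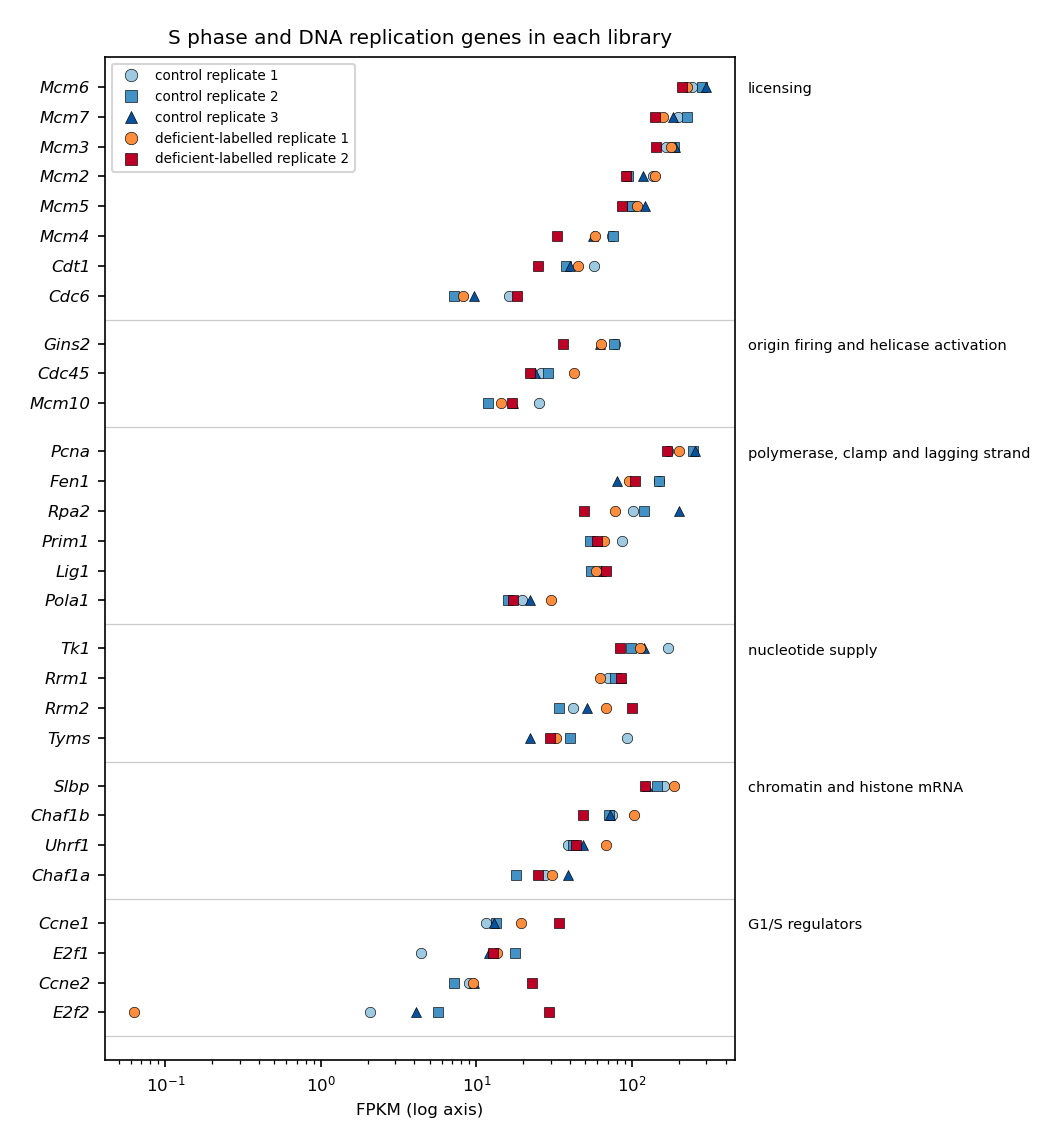
FPKM (log axis) of the 29 S phase and DNA replication genes, grouped by role, with blue points for the 3 control and orange and red points for the 2 deficient-labelled libraries. E2f2 has the widest spread, from 0.0625 to 29.3 FPKM, 12 of the 29 genes range at least 1.5-fold among the controls alone, and Rrm2 and Ccne1 stand above all controls in both deficient-labelled libraries.

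None of the 29 genes passed the test between the groups (limma, adjusted p between 0.505 and 0.990, threshold 0.05), where 2 of 10570 genes (0.0189%) passed, 0.00946% in each direction. At an unadjusted p under 0.05 there were 2 members, against 8.45% of all tested genes. These were Rrm2, higher as were 3.26% of all tested genes, and Rpa2, lower as were 5.18%. The median log2 fold change of the 29 was -0.055 on the log2(FPKM + 1) scale, with 12 positive and 17 negative, beside -0.10 over all tested genes, with 4682 positive and 5888 negative. All 29 fold changes lay between the percentiles 10 and 90 of all genes, which were -1.24 and 1.03, without matching for level. After median-of-ratios scaling the median of all genes moved to 0.012 and that of the set to 0.069, with 16 positive and 13 negative. The groups did not overlap for 5 members, or 17.2%, against 26.1% of all tested genes. Rrm2 and Ccne1 were above every control (10.2% of all genes) and Mcm6, Mcm7 and Rpa2 below (15.9% of all genes). Median-of-ratios scaling left out Mcm6 and added Ccne2 and Uhrf1 as higher.

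**Figure D3:**
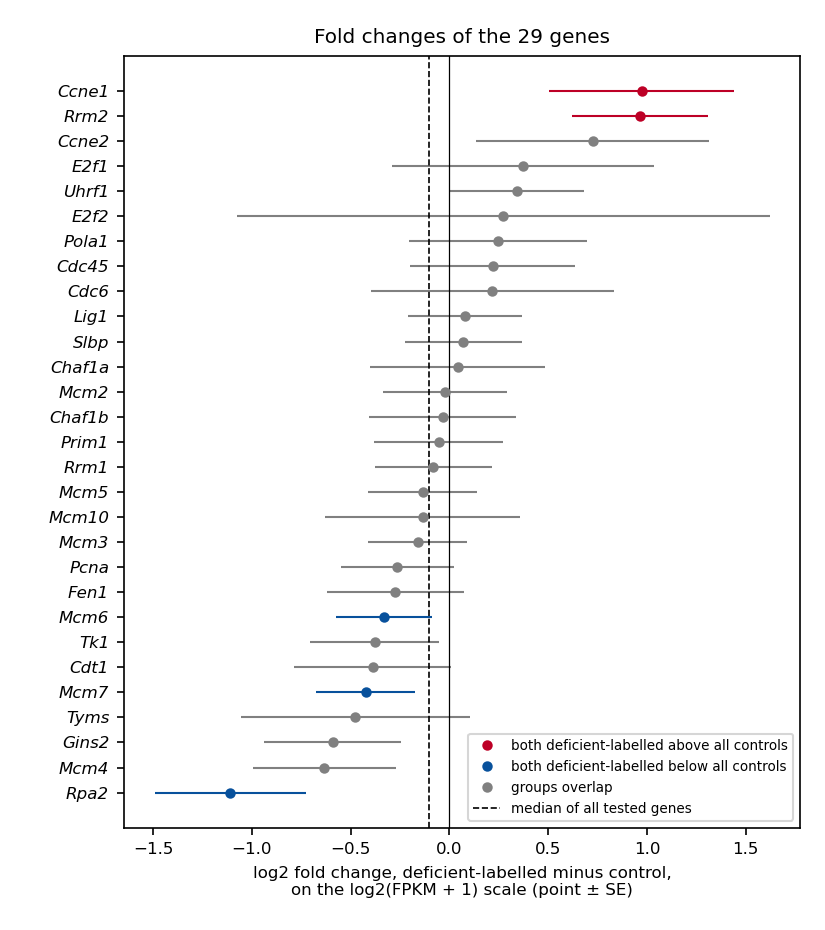
Log2 fold change (deficient-labelled minus control, log2(FPKM + 1) scale, point ± SE) of the 29 genes, coloured by whether the groups overlap; the dashed line is the median of all tested genes, -0.10. Ccne1 and Rrm2 stand at the top, at 0.97 and 0.96, and Rpa2 at the bottom, at -1.11.

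Among the licensing genes, all 6 helicase subunits had negative fold changes, from -0.63 for Mcm4 to -0.022 for Mcm2, whose sign turned to 0.10 under median-of-ratios scaling. Mcm6 was at 244, 282 and 301 FPKM in control replicates 1, 2 and 3, and the deficient-labelled replicates 1 and 2 had 226 and 210.3 FPKM. Both deficient-labelled values lay below the lowest control (log2 fold change -0.33, SE 0.24, limma adjusted p = 0.726). Mcm7 was at 198, 225 and 183 against 158 and 141 FPKM, again without overlap (log2 fold change -0.42, SE 0.25, limma adjusted p = 0.672). Its locus hosts a microRNA cluster and touches the protein-coding genes Cops6 and Ap4m1 in GENCODE M21, so reads could be shared. In all, 13 of the 29 overlap another annotated gene, 9 of them a protein-coding one, while Mcm6, Rrm2, Rpa2 and Ccne1 overlap none. Similar sequence elsewhere in the genome was not searched for, apart from pseudogenes named after a member.

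The other 4 subunits overlapped between the groups, deficient-labelled replicate 2 being the lowest library for each of them. Mcm4 was at 74.9, 76.1 and 56.1 FPKM across the controls, against 58.2 and 32.9 FPKM with the deficient label (log2 fold change -0.63, SE 0.36, limma adjusted p = 0.666). Mcm3 was at 166, 186 and 188 against 179 and 144 FPKM. Mcm5 was at 99.1, 99.6 and 121 against 108 and 85.9 FPKM. Replicate 1 of the deficient-labelled libraries thus sat inside the control range for Mcm3, Mcm4 and Mcm5. For Mcm2 it was the highest library of all 5, at 141 FPKM, with the controls at 137, 93.9 and 118 and replicate 2 at 91.2 FPKM.

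The proteins form a ring with equal copies, and the transcripts did not stand at equal levels. As a share of the summed Mcm2 to Mcm7 FPKM in a library, Mcm6 took 26.5%, 29.3% and 31.1% in the controls and 26.0% and 29.8% in the deficient-labelled libraries. Mcm4 took the least in every library, at 8.16%, 7.91% and 5.80% against 6.68% and 4.66%. Mcm6 was first and Mcm4 last in all 5 libraries. Mcm7 stood above Mcm3 in control replicates 1 and 2 and below it in the other 3 libraries. Mcm2 stood below Mcm5 in control replicates 2 and 3 and above it in the other 3. The summed level was 918 to 968 FPKM in the controls and 870.3 and 706 FPKM for deficient-labelled replicates 1 and 2.

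**Figure D4:**
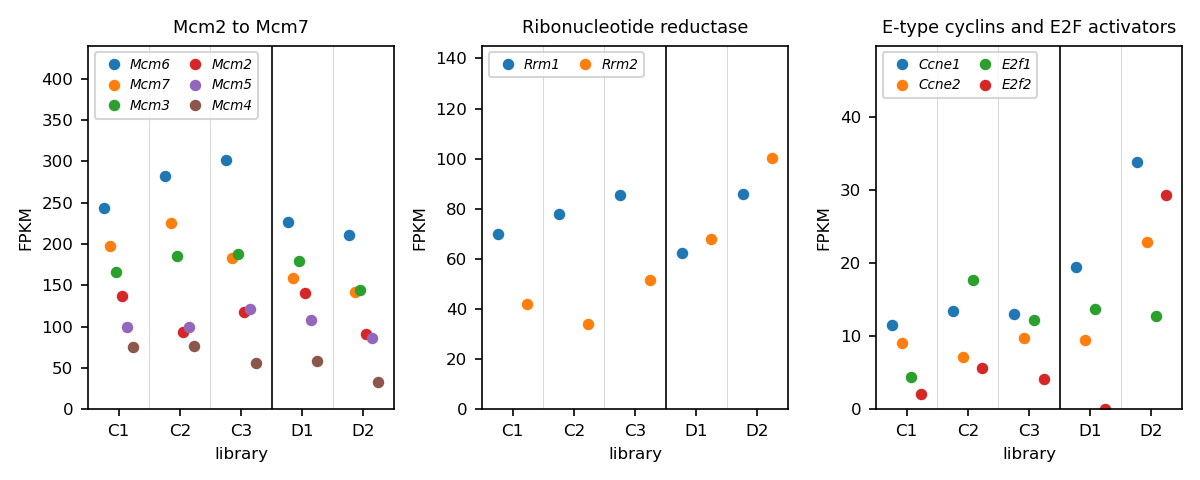
FPKM (linear axis from 0) in control replicates 1 to 3 (C1 to C3) and deficient-labelled replicates 1 and 2 (D1, D2) for the 6 helicase subunits, the 2 ribonucleotide reductase genes, and E-type cyclins with E2F activators. Mcm6 is the highest and Mcm4 the lowest subunit in each library, and Rrm2 is above Rrm1 only in D1 and D2.

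Of the helicase loaders, Cdc6, an ATPase that brings the helicase to the origin complex, was at 16.2, 7.22 and 9.70 FPKM among the controls, while the deficient-labelled libraries had 8.26 and 18.2 FPKM. Its partner Cdt1 was at 56.6, 37.6 and 40.2 against 44.8 and 24.9 FPKM. The loaders thus ran opposite ways in deficient-labelled replicate 2, which had the highest Cdc6 and the lowest Cdt1 of the 5 libraries. Neither passed (limma adjusted p = 0.943 and 0.807).

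Origin firing was represented by 3 genes, all overlapping between the groups. Gins2, a subunit of the GINS complex, was at 78.4, 77.1 and 62.8 FPKM in the controls, with 63.0 and 36.1 FPKM under the deficient label (log2 fold change -0.59, SE 0.35, limma adjusted p = 0.672). Cdc45, which joins GINS on the active helicase, was at 26.0, 28.7 and 23.7 against 42.1 and 22.0 FPKM. Deficient-labelled replicate 1 was above and replicate 2 below every control for Cdc45. Mcm10, a factor needed for helicase activation, was at 25.4, 11.9 and 17.1 against 14.5 and 17.0 FPKM.

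At the fork, Rpa2 was the member with the most negative fold change. It encodes a subunit of the complex that coats single-stranded DNA. Its level was 102, 119.6 and 201 FPKM across the controls, against 78.2 and 49.0 FPKM with the deficient label, so both lay below the lowest control (log2 fold change -1.11, SE 0.38, limma adjusted p = 0.505). Leaving out each library in turn kept the sign, with log2 fold changes from -1.44 to -0.78.

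Pcna, the sliding clamp, was at 171, 249 and 256 FPKM among the controls, while the deficient-labelled libraries had 202 and 168 FPKM. Control replicate 1 lay between them, and the difference did not pass (log2 fold change -0.26, SE 0.29, limma adjusted p = 0.817). Polymerase alpha starts each new strand, with Pola1 as its catalytic subunit and Prim1 as its primase. Pola1 was at 19.7, 15.9 and 22.1 against 30.2 and 17.1 FPKM, and Prim1 at 85.9, 53.6 and 59.7 against 66.1 and 59.3 FPKM. For Pola1 deficient-labelled replicate 1 was the highest library, while for Prim1 both deficient-labelled values lay within the control range. Lagging strand fragments are trimmed and then joined. Lig1, the ligase, was at 62.6, 54.8 and 63.1 against 59.1 and 68.2 FPKM (log2 fold change 0.080, SE 0.29, limma adjusted p = 0.953). Fen1, the flap nuclease, varied more, at 149, 149 and 80.3 against 96.1 and 104 FPKM, the range of the controls enclosing the deficient-labelled values. In the annotation both overlap a protein-coding gene on the opposite strand.

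Rrm2 was the nucleotide supply gene with non-overlapping groups. It encodes the small subunit of ribonucleotide reductase, the enzyme that makes deoxyribonucleotides, and is known to be induced in S phase. Its level was 42.1, 33.8 and 51.4 FPKM in the controls, with 67.9 and 100.4 FPKM under the deficient label (log2 fold change 0.96, SE 0.35, limma adjusted p = 0.505). Left-out libraries changed the log2 fold change from 0.69 to 1.24 and never its sign. The large subunit Rrm1 was at 69.8, 78.1 and 85.3 against 62.4 and 85.7 FPKM, the deficient-labelled libraries lying just outside either end of the controls (log2 fold change -0.082, limma adjusted p = 0.953).

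Within each library, which removes any library scaling, the ratio of Rrm2 to Rrm1 was 0.603, 0.433 and 0.603 in the controls and 1.09 and 1.17 in the deficient-labelled libraries. The mean was 0.546 ± 0.0981 (SD, n = 3) against 1.13 ± 0.0582 (SD, n = 2). Of 9 within-library ratios computed, it was the one whose groups did not overlap, and it was looked at after the levels were known. No test was made of it. The plot of subunit levels shows Rrm2 below Rrm1 in each control and above it in each deficient-labelled library.

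Thymidylate synthase (Tyms) and thymidine kinase (Tk1) supply thymidine nucleotides by separate routes. Tyms was at 93.5, 39.7 and 22.0 FPKM across the controls, against 32.4 and 29.8 FPKM with the deficient label, so the controls alone spanned 4.25-fold. Tk1 was at 171, 99.2 and 119.7 against 112 and 84.2 FPKM. Both were highest in control replicate 1, and neither passed (limma adjusted p = 0.838 and 0.759). Tyms has an annotated pseudogene copy, as has Pcna, and Tk1 overlaps 2 coding genes on the opposite strand, so their values may include reads from elsewhere.

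Chromatin must be rebuilt behind the fork, and the 4 members of that role overlapped between the groups. Chaf1b, a subunit of the histone chaperone CAF-1, held within 71.5 to 74.5 FPKM in the controls. Deficient-labelled replicate 1, at 104 FPKM, and replicate 2, at 48.5 FPKM, lay on either side. Chaf1a, the large CAF-1 subunit, was at 27.5, 17.9 and 38.9 against 30.7 and 24.9 FPKM. Slbp, which binds histone mRNA, was at 161, 146 and 126 against 187 and 121 FPKM. Uhrf1, which recruits the maintenance DNA methyltransferase to new DNA, was at 38.7, 41.9 and 48.5 against 68.0 and 43.7 FPKM. Deficient-labelled replicate 1 was the highest of the 5 libraries for Chaf1b, Slbp and Uhrf1, and replicate 2 was the lowest for Chaf1b and Slbp. The 4 adjusted p-values ran from 0.804 to 0.984 (limma).

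The 4 regulators at the G1/S boundary had positive fold changes, and none passed. E2f2 turned to -0.77 with a pseudocount of 0.1 and to -2.15 without deficient-labelled replicate 2. Without control replicate 1, E2f1 turned to -0.14 and E2f2 to -0.039. Ccne1, which encodes cyclin E1, the activator of the kinase Cdk2 at S phase entry, was at 11.53, 13.41 and 13.03 FPKM among the controls, while the deficient-labelled libraries had 19.5 and 33.9 FPKM. Both lay above the highest control, and their 12.7 ± 0.994 against 26.7 ± 10.2 FPKM (SD, n = 3 and 2) gave a log2 fold change of 0.97 (SE 0.47, limma adjusted p = 0.621). Without either deficient-labelled library the fold change stayed positive, the lowest value over all left-out libraries being 0.59. Ccne2, its paralog, was at 9.01, 7.15 and 9.69 against 9.45 and 22.8 FPKM, with replicate 1 inside the control range and replicate 2 above it (log2 fold change 0.72, SE 0.59, limma adjusted p = 0.748). Ccne1 was above Ccne2 in all 5 libraries.

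E2f1 and E2f2 encode activators that drive S phase transcription. E2f1 was at 4.41, 17.6 and 12.1 FPKM in the controls, with 13.7 and 12.8 FPKM under the deficient label, well within the control range. E2f2 was at 2.06, 5.68 and 4.09 FPKM in the controls, with 0.0625 FPKM and 29.3 FPKM for deficient-labelled replicates 1 and 2. Those 2 libraries thus held the lowest and the highest E2f2 of all 5, the widest range of any member. The fold change of E2f2, 0.27, had an SE of 1.35 (limma adjusted p = 0.967), and it was -2.15 without replicate 2 and 2.69 without replicate 1. E2f2 is known to be expressed strongly in erythroid precursors. The erythroid markers on the list summed to 40.8 to 73.6 FPKM in the controls and to 166 and 640 FPKM for deficient-labelled replicates 1 and 2, with 9 of 9 positive. Of these 9, 2 were at 0 in control replicate 1 and 1 in control replicate 2. Their part in the E2f2 value was not tested.

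Among the deficient-labelled libraries, replicate 2 was the lowest of the 5 libraries for 14 of the 29 genes and the highest for 7. Thus 21 genes had their extreme there, against 8 to 11 in any other library. These counts, and those of 1.5-fold differences below, were not made over all tested genes. They therefore do not show a trait particular to the replication genes. Replicate 1 exceeded replicate 2 for 20 of the 29 genes (69.0%), where 54.1% of all tested genes did so. Over 1.5-fold differences ran in both directions, with 10 genes higher in replicate 1, among them Chaf1b, Cdc45, Cdt1, Mcm4 and Gins2. Higher by that much in replicate 2 were 4 genes, Ccne1, Ccne2, Cdc6 and E2f2. Without replicate 2 the median log2 fold change of the set was -0.0054 (all tested genes -0.029), and without replicate 1 it was -0.24 (all tested genes -0.14).

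As a share of a library's FPKM the 29 genes made up 0.392%, 0.364% and 0.370% in the controls and 0.334% and 0.322% in deficient-labelled replicates 1 and 2. Granulocyte-monocyte markers made up 0.162% to 0.541% in the controls, 1.75% in deficient-labelled replicate 1 and 11.8% in replicate 2. With those markers left out of the total, a choice made after the data were seen, the share of the 29 genes was 0.365% in replicate 2, just below the control range of 0.366% to 0.392%. In replicate 1 it was then 0.340%. Megakaryocyte-platelet markers summed to 737 to 1510 FPKM across the controls, against 8441 and 3927 FPKM with the deficient label, with 9 of 12 fold changes positive. Lymphoid markers were few, 4 found, summing to 48.8 to 59.5 FPKM among the controls, while the deficient-labelled libraries had 21.2 and 156 FPKM. Of these 4, 3 were at 0 in control replicate 1, 1 in control replicate 2 and 2 in deficient-labelled replicate 1. The part of these cells in the results was not tested.

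The wider replication list, of 59 genes outside the 29, had 55 tested genes, and 0 passed, where 0.0189% of all genes did (limma, lowest adjusted p = 0.439). Its median log2 fold change was -0.16, with 21 positive and 34 negative. At an unadjusted p under 0.05 there were 4 of 55 lower and 0 higher, against 5.18% and 3.26% of all tested genes. The 4 were Pold2 and Pold3, accessory subunits of polymerase delta, Timeless, a fork protection factor, and Rfc3, a clamp loader subunit. Pold2 was at 137, 176 and 136 FPKM in the controls, with 83.2 and 67.2 FPKM under the deficient label, without overlap (log2 fold change -0.98, SE 0.28, limma adjusted p = 0.439). Pold3, chosen after its values were seen, was at 28.0, 29.0 and 45.2 against 15.7 and 14.9 FPKM, again without overlap. Timeless was at 57.4, 60.2 and 24.9 against 9.67 and 19.3 FPKM, and Rfc3, also chosen after its values were seen, at 120.0, 47.5 and 72.5 against 48.2 and 19.1 FPKM. Of these 4, Rfc3 alone overlapped between the groups. In all, 7 of 55 did not overlap (12.7%), 1 (Mcm8, chosen after its values were seen) above and 6 below the controls. Among all tested genes 26.1% did not, 10.2% above and 15.9% below. Atr, the checkpoint kinase, was also below all controls, at 25.2, 10.6 and 6.46 against 6.02 and 3.39 FPKM. The most abundant others, Dtymk, Rfc2 and Rnaseh2c, overlapped, at 273 ± 63.4 against 298 ± 82.0, 247 ± 72.0 against 199.7 ± 32.6 and 203 ± 26.4 against 240.4 ± 14.0 FPKM (SD, n = 3 and 2).

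Genes of G1/S control, 24 tested, had a median of 0.32 with 16 positive and 8 negative, and none passed (limma, lowest adjusted p = 0.433). At an unadjusted p under 0.05 there were 1 of 24 higher and 2 lower, near the 3.26% and 5.18% of all tested genes. They were Ccna2, higher, and E2f5 and Cdkn1c, lower, of which Ccna2 and Cdkn1c were chosen after their values were seen. Cdkn1c, the inhibitor p57, was at 44.0, 41.5 and 48.2 against 15.22 and 18.97 FPKM, without overlap. The groups did not overlap for 9 of 24 (37.5%), 6 above and 3 below the controls. Over all tested genes the share was 26.1%, with 10.2% above and 15.9% below. Cdkn1a, the cell cycle inhibitor p21, was at 0.0382, 5.09 and 3.46 FPKM across the controls, against 6.37 and 12.2 FPKM with the deficient label. E2f5, a repressive E2F, was below all controls, at 44.4, 15.2 and 10.3 against 5.66 and 4.68 FPKM. Ccnd2, a D-type cyclin, was also below, at 492, 103 and 92.2 against 81.0 and 67.2 FPKM, control replicate 1 standing far above the rest. The other abundant genes of the list, Cdk4, Ccnd3 and Myc, overlapped between the groups, Myc at 211, 314 and 135 against 192 and 139 FPKM. Cdk4 was at 248 FPKM in deficient-labelled replicate 2 against 393 to 446 FPKM elsewhere, and Ccnd3 was at 472 FPKM there against 192 to 232 FPKM elsewhere.

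Beside the replication genes, 38 tested genes of G2/M and mitosis had a median of 0.45, with 29 positive and 9 negative, and none passed (limma, lowest adjusted p = 0.439). At an unadjusted p under 0.05 there were 6 of 38 higher and 0 lower, against 3.26% and 5.18% of all tested genes. For 16 of them the deficient-labelled libraries lay above every control and for 2 below, together 47.4%. Of all tested genes 10.2% lay above and 15.9% below, together 26.1%. The S phase set had 2 above and 3 below, together 17.2%, and no test of the difference between these sets was made. Cenpa, the centromeric histone, was at 68.1, 142 and 70.6 FPKM among the controls, while the deficient-labelled libraries had 275 and 203 FPKM (log2 fold change 1.41, SE 0.39, limma adjusted p = 0.439). Kif20a, a kinesin of cytokinesis, was at 12.2, 30.3 and 26.9 against 51.8 and 60.6 FPKM. Cks2, a Cdk-binding protein, was at 192, 214 and 274 against 350.0 and 340.1 FPKM, and Birc5, the chromosomal passenger survivin, at 128, 147 and 139 against 208 and 199.8 FPKM. Both stood above every control. Of the other abundant genes, Cks1b at 303 to 379 against 269 and 338 FPKM and Bub3 at 129.9 to 240.0 against 163 and 137 FPKM, the groups overlapped. Cdk1, the mitotic kinase, chosen after its values were seen, held at 36.4 to 37.2 FPKM in the controls and had 83.6 and 63.0 FPKM under the deficient label. Leaving out deficient-labelled replicate 1 or 2 gave a median for the list of 0.61 or 0.31. Top2a stands on both the wider replication and the mitosis list. The plot of fold changes by list shows the sets beside all genes.

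**Figure D5:**
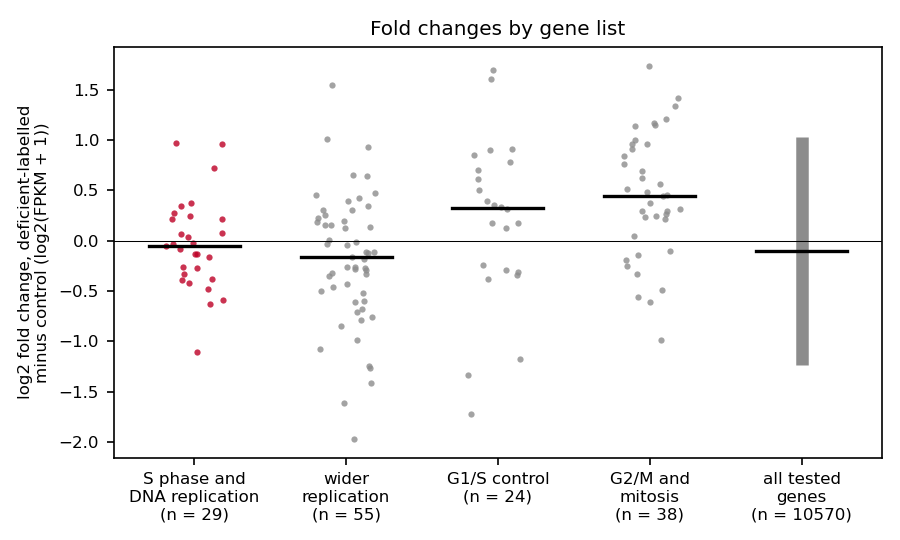
Log2 fold change (deficient-labelled minus control, log2(FPKM + 1) scale) of each tested gene in 4 lists, with the median as a black bar; for all 10570 tested genes the grey bar spans percentiles 10 to 90. The S phase set is centred at -0.055, close to the -0.10 of all genes, and the G2/M list at 0.45.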

How the data were processed

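RNA-seq libraries of sorted HSCs (3 control, 2 Tle1/3/4-deficient by title) were analysed from the FPKM values that the authors deposited, 1 row per gene symbol. The submitters' processing notes list mm9, TopHat and edgeR without versions or roles. What annotation, FPKM tool or filter was applied is not given in the sources used here. Because each library is scaled to its own total, abundant genes in 1 library lower the rest.

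In R 4.3.3, limma 3.58.1 was fitted to log2(FPKM + 1) of the genes averaging 1 FPKM or more, with a trended prior and no covariate beside group. P-values were two-sided and adjusted by Benjamini-Hochberg over all these genes, at a threshold of 0.05. The pseudocount of 1 understates changes of low genes. The test was checked on simulated data. Members and lists were chosen with earlier results of these data known. The rule named all members, Tle1, Tle3 and Tle4, the 2 most abundant genes of each marker list, and, of the other lists, genes past the threshold or else the 4 most abundant and the 2 with the largest change among non-overlapping genes of at least 5 FPKM. Marker genes are given in sums. Sort markers and a few others were chosen after their values were seen. Promoters came from the RefSeq table (GRCm38.p6); 23 of 26 window ends matched a GENCODE M21 transcript on the gene's strand. Alternatives covered pseudocount, filter, scaling, variance model, weights, replicate block, threshold and leaving out each library. Python 3.11.15 with pandas 2.3.3 was used.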

Additional observations from a re-analysis of the deposited data

How the results depend on the processing

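No member passed under any of the 15 refits (lowest adjusted p 0.375, limma) or at a threshold of 0.1, while 2 had an unadjusted p under 0.05. Of 10570 genes 2 were called, 0 with a pseudocount of 0.1, no filter or array weights, 1 without trend, 4 with a pseudocount of 5 or median-of-ratios scaling, 5 with robust fitting or a threshold of 0.1, and 893 at an unadjusted p under 0.05. Leaving out 1 library gave 0 to 2. The replicate block gave 22, and no member was called with it. The shared numbers were not taken as pairs, because the labels state no animal shared by same-numbered libraries. Deviations of same-numbered libraries correlated at 0.035 and 0.0069. With 2 deficient-labelled libraries their deviations mirror each other, so both values rest on the same difference and cannot settle whether libraries were paired. Runs without a deficient-labelled library rest on 1 such library, assumed to vary like the controls.

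The set's median of -0.055 became 0.069 with median-of-ratios scaling and -0.24 to -0.0054 when 1 library was left out. The wider list's median of -0.16 became -0.038 with that scaling and -0.21 to 0.053 without 1 library. The G1/S control median of 0.32 became 0.45 and 0.16 to 0.43, and the G2/M median of 0.45 became 0.57 and 0.31 to 0.61. The 5 non-overlapping members became 8 with quantile normalization (26.4% of all genes), 7 to 11 without 1 control (37.5% to 38.5% of all genes), and 21 and 13 without deficient-labelled replicate 1 and 2 (55.03% and 55.04% of all genes), fewer libraries overlapping less by construction.

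Of 435 member values under alternatives 30 turned sign, in 16 members with log2 fold changes of at most 0.48 in size. The 435 include values that could not turn, since changing the filter, the trend or robust fitting leaves a member's fold change as it was. The replicate block repeats the fold changes of the run without control replicate 3. The 30 of 435 is therefore no measure of stability. Their values were as follows, and the cause was not tested. With median-of-ratios scaling Mcm2 was at 0.10, Rrm1 at 0.042, Chaf1b at 0.090 and Prim1 at 0.069; with quantile normalization Chaf1b was at 0.00082; with array weights Chaf1a was at -0.11; with a pseudocount of 0.1 E2f2 was at -0.77; with the replicate block Slbp was at -0.023. Over the runs that left out 1 library, values went from -0.33 to 0.29 for Mcm2, -0.30 to 0.030 for Mcm5, -0.39 to 0.12 for Mcm10, -0.31 to 0.14 for Rrm1, -0.95 to 0.065 for Tyms, -0.31 to 0.74 for Cdc6, -0.80 to 0.023 for Cdt1 and -0.24 to 0.67 for Cdc45. They went from -0.24 to 0.30 for Chaf1a, -0.57 to 0.51 for Chaf1b, -0.14 to 0.75 for E2f1, -2.15 to 2.69 for E2f2, -0.15 to 0.64 for Pola1, -0.19 to 0.14 for Prim1, -0.24 to 0.38 for Slbp and -0.022 to 0.18 for Lig1. Depth is unknown, so counting error could not be separated from other spread.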

Other observations

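Ratios between partner transcripts within a library varied widely among the controls alone. Cdt1 over Cdc6 was 3.50, 5.20 and 4.14 in the controls and 5.42 and 1.37 in the deficient-labelled libraries. Chaf1b over Chaf1a was 2.71, 4.00 and 1.86 against 3.38 and 1.95. Prim1 over Pola1 was 4.37, 3.37 and 2.70 against 2.19 and 3.46. Fen1 over Lig1 was 2.39, 2.71 and 1.27 against 1.63 and 1.53. Ccne1 over Ccne2 was 1.28, 1.88 and 1.34 against 2.06 and 1.48. Mcm3 took 18.0%, 19.3% and 19.5% of the summed Mcm2 to Mcm7 FPKM in the controls and 20.6% and 20.4% in the deficient-labelled libraries, the one subunit whose shares did not overlap.

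Among the 10 members with an E2F motif in the promoter window, 5 had positive and 5 negative fold changes, from -0.42 for Mcm7 to 0.34 for Uhrf1, and the groups did not overlap for 2, Mcm6 and Mcm7, a share near the 26.1% of all tested genes.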
